A study of Mus musculus with 15 samples.

Results

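The 10 genes described here belong to bone morphogenetic protein (BMP) signalling: the ligands Bmp2, Bmp4, Bmp6 and Bmp7, the receptor Bmpr1a, the Id1, Id2 and Id3 target genes, and the inhibitory Smads Smad6 and Smad7. They were picked by symbol out of 56953 genes, and all 10 had a row in each table. The choice was made with results of these libraries known, since Bmp7 ranked high among the genes that differed between muscle stem cells (MuSCs) taken after and before transplantation. Values of that comparison are therefore given as a description, with no p for any of the 10 genes.

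RNA was sequenced in bulk from wild-type mice of strain 129, which the labels give as males aged 10 weeks. Mice 5, 6 and 11 gave a biopsy of MuSCs, the satellite cells that rebuild muscle fibres, after they had received their own MuSCs back, and another before (3 libraries each). The later biopsy was taken outside the grafted area, so these are endogenous cells of treated mice and not the graft. Quadriceps femoris muscle came from 6 mice that received a transplant of their own MuSCs and from 3 sham-operated mice. Sham libraries also carry transplantation as their treatment label, and it is their titles that name them as sham. Libraries are called by group and mouse number, as in after 5 or sham 12.

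BMPs are secreted proteins that bind paired type I and type II receptors on the cell surface. The type I receptor then phosphorylates Smad1, Smad5 and Smad9, which enter the nucleus with Smad4 and switch on genes such as Id1, Id2 and Id3. Id proteins bind the E-protein partners of MyoD and its relatives and so hold back differentiation, and BMP signalling is known to keep activated MuSCs dividing. Smad6 and Smad7 are induced by the same signal and dampen it, Smad7 also that of TGF-beta. In adult muscle fibres, BMP signalling is known to help maintain muscle mass.

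Each library held 17.09 to 22.98 M estimated counts (M for mega) and 17873 to 20284 detected genes. Mitochondrial transcripts made up 1.2% of the counts in after 11 and 4.44 to 6.28% in the other MuSC libraries. Markers of MuSCs summed to 807 to 1358 TPM (a transcript level scaled for length and library total) in MuSC libraries and to 44.5 to 63.5 TPM in muscle. Pax7, the defining satellite cell factor, lay between 11.8 and 21.6 TPM in the MuSC libraries. Myod1, which marks activated cells, lay between 532 and 958 TPM there and made up most of the sum. Of the 7 markers, 5 averaged at least 1 TPM in MuSCs and 3 in muscle. Calcr was at 0 in all after libraries, and Chrdl2 averaged 0.143 TPM in MuSCs and 0.177 TPM in muscle. The leukocyte gene Ptprc was at 0 in all 6 MuSC libraries. Endothelial markers summed to 0.41 to 2.27 TPM there, with Emcn at 0 in all 6, and to 64.4 to 109 TPM in muscle. Other lists ran the other way. Smooth muscle and pericyte markers summed to 178 to 1168 TPM in MuSC libraries and 70.2 to 127 TPM in muscle, with 2 of 6 averaging at least 1 TPM in MuSCs. Tenocyte markers summed to 44.0 to 74.6 TPM in MuSC libraries and 11.0 to 62.4 TPM in muscle, with Tnmd and Fmod at 0 in MuSCs. The label of male is not borne out by sex-linked genes: 4 Y-linked genes summed to 0.01 to 0.31 TPM in all 15 libraries, and Xist lay between 2.63 and 84.1 TPM in 14 of them. The MuSC libraries fall into sets by how their description names are written. Set B (after 6, after 11, before 6) has the letter F ahead of the number, and set A (after 5, before 5, before 11) has it behind. The labels do not say what the spelling stands for. Both libraries of mouse 5 are in set A and both of mouse 6 in set B, while mouse 11 changes set between before and after.

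The Id genes were the most abundant of the 10 in MuSCs, and far lower in whole muscle. Id3 averaged 485 ± 142 TPM in MuSCs (SD, n = 6) and 9.35 ± 2.50 TPM in muscle (n = 9), a ratio of 51.8. Id1 averaged 432 ± 113 TPM in MuSCs and 12.6 ± 3.22 TPM in muscle, a ratio of 34.2. For Id2 the means were 182 ± 36.2 TPM in MuSCs and 1.52 ± 0.591 TPM in muscle, a ratio of 120. Each of the 6 MuSC libraries lay above each of the 9 muscle libraries for all 3 Id genes. Such a separation is common here: of 15685 genes tested in either tissue, 37.3% were higher in every MuSC library than in every muscle library, 17.2% were lower, and 54.6% did not overlap in either direction. Among themselves, Id3 and Id1 overlapped across MuSC libraries (287 to 695 TPM and 287 to 543 TPM), while the highest Id2 value was 244 TPM.

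The inhibitory Smads were also higher in MuSCs, at lower levels than the Id genes. Smad7 averaged 29.6 ± 7.51 TPM in MuSCs and 2.09 ± 0.591 TPM in muscle, and Smad6 averaged 8.94 ± 2.14 TPM in MuSCs and 1.95 ± 0.575 TPM in muscle. Their ranges did not overlap between MuSC and muscle libraries either, which puts 5 of the 10 genes among the 37.3%. The receptor Bmpr1a averaged 18.8 TPM in both, with an SD of 13.9 TPM in MuSCs and of 5.22 TPM in muscle. It was the most abundant of the 10 genes in muscle and stood behind Id1, Id2, Id3 and Smad7 in MuSCs, where its libraries ran from 1.28 to 33.8 TPM. In muscle its range of 11.4 to 25.7 TPM overlapped that of Id1 (6.62 to 16.4 TPM), which in turn overlapped that of Id3 (5.72 to 13.7 TPM).

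Each ligand had its own pattern. Bmp6, a ligand best known from iron regulation in the liver, was nearly absent from MuSCs, with 7 counts over all 6 libraries. In muscle it reached 2.14 to 5.38 TPM, above every MuSC library, as did 17.2% of all genes, and had the highest mean of the 4 ligands. Bmp2 averaged 1.58 ± 1.14 TPM in MuSCs and 0.840 ± 0.341 TPM in muscle, and Bmp4 averaged 2.45 ± 2.66 TPM in MuSCs and 1.68 ± 0.612 TPM in muscle. For both, the MuSC and muscle ranges overlapped. Bmp7 had a median of 0.895 TPM in MuSCs, with 50.6 TPM in after 5, and stayed between 0.09 and 0.35 TPM in muscle.

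MuSC and muscle libraries lie in different tables, so these level differences were not tested. In bulk RNA, fewer cells of a type and less RNA per cell cannot be told apart. In muscle, markers of myofibres summed to 104209 to 137406 TPM, against 588 to 5598 TPM in MuSC libraries, and the part of cell makeup in the levels was not tested.

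**Figure D1:**
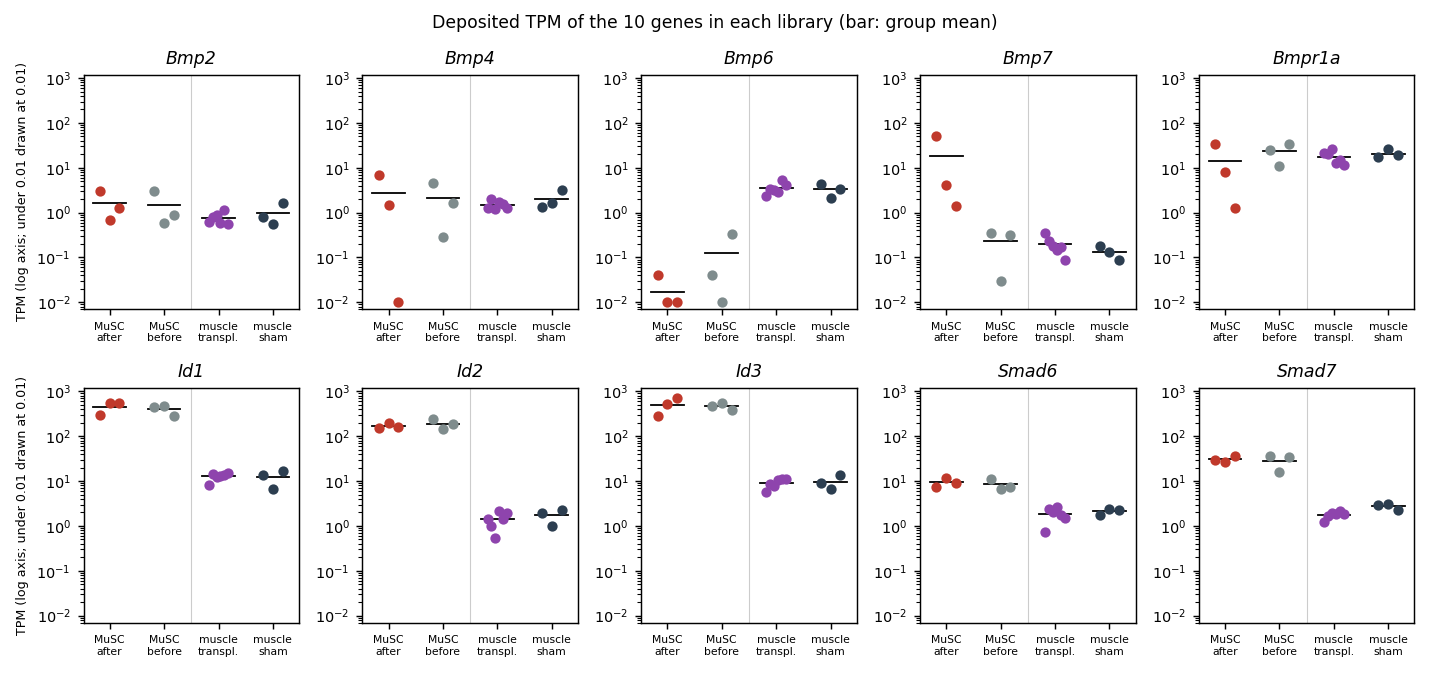
Deposited TPM of each of the 10 genes by library on a log axis, 1 point per library, with a bar at each group's mean; values under 0.01 TPM are drawn at 0.01. The 6 MuSC libraries lie above the 9 muscle libraries for Id1, Id2, Id3, Smad6 and Smad7 and below them for Bmp6; of all genes, 37.3% lie above and 17.2% below in this way.

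The 250 bases ahead of the annotated start are shown for Id2 and Id3, which were high in MuSCs, and for Bmp6, which was high in muscle. They are read 5′ to 3′ on the gene's strand from RefSeq for build GRCm38.p6, whose table held 6 of the 10 genes. Capitals mark GGCGCC, a GC-rich Smad1/5 motif, and CAGAC, the Smad box, each searched on both strands (a reverse match reads GTCTG for the second). The positions are chr12:25096093-25096342 on the minus strand for Id2, chr4:136143572-136143821 on the plus strand for Id3 and chr13:38345466-38345715 on the plus strand for Bmp6.
Id2: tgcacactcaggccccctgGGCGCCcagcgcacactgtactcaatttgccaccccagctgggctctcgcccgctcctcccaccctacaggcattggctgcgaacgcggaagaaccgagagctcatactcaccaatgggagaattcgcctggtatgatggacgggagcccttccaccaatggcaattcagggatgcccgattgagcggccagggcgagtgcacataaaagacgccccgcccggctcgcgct
Id3: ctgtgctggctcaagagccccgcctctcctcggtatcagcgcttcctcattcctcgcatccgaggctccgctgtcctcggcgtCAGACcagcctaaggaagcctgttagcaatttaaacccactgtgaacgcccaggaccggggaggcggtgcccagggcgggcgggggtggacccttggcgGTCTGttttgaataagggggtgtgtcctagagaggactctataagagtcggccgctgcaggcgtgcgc
Bmp6: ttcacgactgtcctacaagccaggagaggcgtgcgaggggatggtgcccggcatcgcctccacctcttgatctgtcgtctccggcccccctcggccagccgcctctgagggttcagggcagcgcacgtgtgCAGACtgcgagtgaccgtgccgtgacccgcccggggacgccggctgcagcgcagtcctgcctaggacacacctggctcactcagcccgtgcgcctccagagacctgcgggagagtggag
Id2 holds 1 GGCGCC and 0 CAGAC, Id3 holds 0 GGCGCC and 2 CAGAC, and Bmp6 holds 0 GGCGCC and 1 CAGAC. Of 32851 promoter windows of this length, 9.59% hold GGCGCC and 42.2% hold CAGAC. Id2 and Id3 thus share neither motif within these windows. The Bmpr1a window held 1 GGCGCC, and those of Bmp4 and Smad6 held neither.

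MuSCs taken after transplantation were compared with those taken before it, the study's question about endogenous cells. Bmp7, a ligand that can keep progenitor cells from differentiating, had 2482, 287 and 94 counts in after 5, 6 and 11, against 21, 2 and 12 counts in before 5, 6 and 11. In CPM (counts scaled to a common library total) that was 124, 15.3 and 5.49 after, against 0.892, 0.125 and 0.592 before. The after libraries all lay above the before libraries and differed widely among themselves, after 5 being the highest. The fitted log2 difference was 6.43 ± 1.40 (SE). It was 4.20 without after 5, and 4.79 without after 5 and after 11, which leaves only after 6 on the after side. It was 7.37 within set A, where after 5 is the only after library. Within set B it was 6.29, where before 6, with 2 counts, is the only before library. In quadriceps of the same mice, sampled after the transplantation, Bmp7 read 0.483, 0.553 and 0.326 CPM in transplanted 5, 6 and 11. Muscle CPM were scaled apart from those of MuSCs, and the levels were not tested against each other.

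Bmp7 was the only one of the 9 tested genes whose after and before libraries did not overlap. Over all 13512 genes tested, 6.33% did not overlap, 3.35% being higher and 2.98% lower after. Bmp7 was chosen with its rank in this comparison known, so its separation is a description only. Non-overlap also makes Bmp7 higher after in all 3 mice, as were 10.8% of all genes. No other gene of the 9 was higher after in all 3. None was lower after in all 3, as were 10.3% of all genes. edgeR's quasi-likelihood test called 0 of 13512 genes (0%) in this comparison at an adjusted p of 0.05, against 305 genes (2.26%) at an unadjusted p of 0.05. DESeq2 called 16 genes.

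The other ligands overlapped between after and before. Bmp2, which can drive bone and cartilage formation, had 7.09, 2.50 and 4.62 CPM in after 5, 6 and 11, and 7.31, 2.12 and 2.17 CPM in before 5, 6 and 11. Its log2 difference was 0.29 ± 0.65, and mouse 5 was the highest in both groups. The difference was -0.14 without after 5 and 1.117 without before 5. Bmp4, a ligand used in embryonic muscle and limb patterning, had 103, 8 and 0 counts after, against 75, 7 and 38 counts before. A count of 0 in after 11 allows up to 3 counts, which lies under the 38 counts of before 11. After 11 is in library set B and before 11 in set A, so set and transplantation cannot be told apart there. In set B, Bmp4 had 8, 0 and 7 counts (after 6, after 11, before 6). In set A it had 103, 75 and 38 counts (after 5, before 5, before 11). Bmp4's fitted difference was 0.01 ± 1.45. It was -3.07 without after 5, which leaves only set B libraries on the after side. Bmp6 was too low to test.

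Bmpr1a, the type I receptor, had 125, 50.1 and 8.24 CPM in after 5, 6 and 11, and 99.2, 60.0 and 128 CPM in before 5, 6 and 11. The low value of after 11 stood alone, and the groups overlapped (log2 difference -0.64 ± 0.83). It was -1.73 without after 5 and -0.13 without after 11. It was 0.15 within set A, which leaves after 11 out, and -1.05 within set B, each with a single library on one side.

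All 5 target genes overlapped between after and before. Id1, the classic BMP-induced member of its family, had 149, 410 and 432 CPM in after 5, 6 and 11, and 234, 349 and 152 CPM in before 5, 6 and 11. Id3, often induced together with it, had 194, 568.04 and 791 CPM after, against 339, 596 and 274 CPM before. In both, mouse 5 was lower after than before and mouse 11 higher, and in mouse 11 library set and transplantation cannot be told apart. The log2 differences were 0.43 ± 0.49 for Id1 and 0.36 ± 0.55 for Id3. Id2, which is also driven by signals other than BMP, had 112, 223 and 188 CPM after, against 180, 163 and 140 CPM before (0.11 ± 0.32).

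Smad6, which blocks the BMP branch by preference, had 14.7, 35.0 and 27.6 CPM in after 5, 6 and 11, and 22.3, 19.3 and 15.1 CPM in before 5, 6 and 11 (0.44 ± 0.38). Smad7, which marks type I receptors for degradation, had 58.5, 83.8 and 97.1 CPM after, against 65.4, 51.9 and 75.0 CPM before (0.32 ± 0.30). Like the Id genes, both had the lower value after in mouse 5, and in mice 6 and 11 they were higher after. Within set A, the log2 differences of Id1, Id2, Id3, Smad6 and Smad7 were -0.36, -0.51, -0.65, -0.34 and -0.25. Within set B they were 0.26, 0.33, 0.18, 0.69 and 0.80. Set A has 1 after library, after 5, and set B has 1 before library, before 6, so each of these values rests on a single library on one side. In mouse 6, whose libraries are both in set B, Id3 was lower after. Over the 8 tested genes other than Bmp7, 7 log2 differences were positive with a median of 0.30, against a median of 0.02 and 51.4% positive over all genes. With the library set as a term, 4 of the 8 were positive with a median of 0.061, and the negative ones were Id1 (-0.051), Id2 (-0.092), Id3 (-0.24) and Bmpr1a (-0.44).

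**Figure D2:**
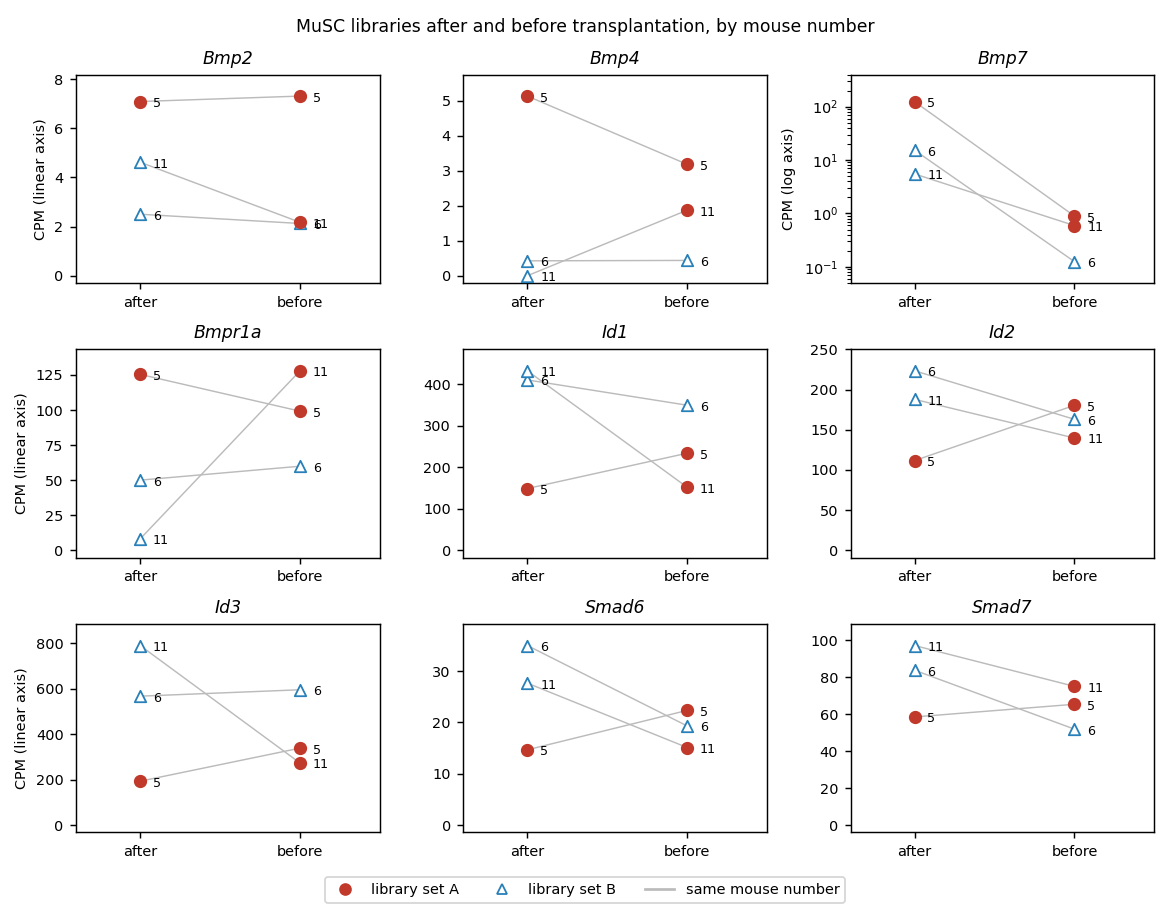
CPM in MuSCs by mouse, with after left of before in each panel and lines joining the libraries of 1 mouse; the Bmp7 panel has a log axis and the others are linear; red circles are library set A and open blue triangles set B. Bmp7 is higher after in mice 5, 6 and 11, while for Id1 and Id3 the after point lies below the before point in mouse 5 and above it in mouse 11.

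The library sets separated several of the 10 genes. Set B and set A were compared in a fit with transplantation as a term, chosen after the data were seen. Id1 averaged 397 ± 42.9 CPM in set B and 178 ± 48.2 CPM in set A (SD, n = 3 each), a log2 difference of 1.18 ± 0.27 with an adjusted p of 0.0535 from edgeR. Id3 averaged 652 ± 121 CPM in set B and 269 ± 72.9 CPM in set A, with an adjusted p of 0.0532 from edgeR. Bmpr1a averaged 39.4 ± 27.5 CPM in set B and 117.5 ± 15.9 CPM in set A, with an adjusted p of 0.127 from edgeR. Bmp4 averaged 0.288 ± 0.249 CPM in set B and 3.40 ± 1.64 CPM in set A, with an adjusted p of 0.0605 from edgeR.

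Those 4 genes did not overlap between sets, 4 of 9, but neither did 56.8% of all 13512 genes (28.6% higher and 28.2% lower in set B). The test called 0 genes (0%) at an adjusted p of 0.05 and 5562 genes (41.2%) at an unadjusted p of 0.05. DESeq2 called 4453 of the 13512 genes, and edgeR without after 11 called 3423 genes. In both, Id1, Id3, Bmp4, Bmp7 and Bmpr1a were among the genes called. Calls were thus common over all genes in these fits and not particular to the genes named. Without after 5, edgeR called 0 genes, 1199 had an unadjusted p under 0.05, and the adjusted p of Id1 and Id3 was 0.560. Leaving out any one of the other libraries also gave 0 calls. The fitted value of Bmp7 was -3.40 ± 0.53 with an adjusted p of 0.0532 from edgeR, but its sets overlapped. At an unadjusted p of 0.05 in edgeR it was 4 of the 9 genes, against 41.2% of all genes. Id2, Smad6, Smad7 and Bmp2 overlapped between sets and had adjusted p-values of 0.199 to 0.819 in edgeR.

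The difference between sets ran with transcript length over all genes. In 5 equal groups of 13357 genes ordered from short to long, the median log2 difference of set B over set A was 0.72, 0.30, 0.01, -0.31 and -0.82. Id1 and Id3 have the shortest annotated transcripts of the 10 genes (longest isoform 1160 and 1278 bases) and Bmpr1a the longest (5956 bases). Bmp4 and Bmp7 lay far below the median of their length group: Bmp4 (2064 bases) at -3.56 against 0.30 and Bmp7 (3670 bases) at -3.40 against 0.01. Bmp2 (3555 bases) lay below its median less clearly, at -1.07 ± 0.58 (SE) against 0.01. Smad6 (2971 bases), at 0.57 against 0.01, and Smad7 (4278 bases), at 0.10 against -0.31, lay above theirs. The same medians for after over before were 0.30, 0.14, 0.03, -0.06 and -0.27. Summed fibroadipogenic markers were 32.3 to 41.1 TPM in set B and 47.8 to 78 TPM in set A, with Dcn, Dpp4 and Lum at 0 in all 6 libraries. Smooth muscle and pericyte markers were 178 to 831 TPM in set B and 991 to 1168 TPM in set A. Schwann markers were 0.12 to 0.52 TPM in set B and 0.68 to 1.46 TPM in set A. Sums of MuSC, myofibre, endothelial, macrophage, adipocyte and tenocyte markers overlapped between the sets. For myofibres they were 588 to 5598 TPM in set B and 2476 to 5007 TPM in set A. The part of length, cell makeup and library set in each gene's values was not tested.

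**Figure D3:**
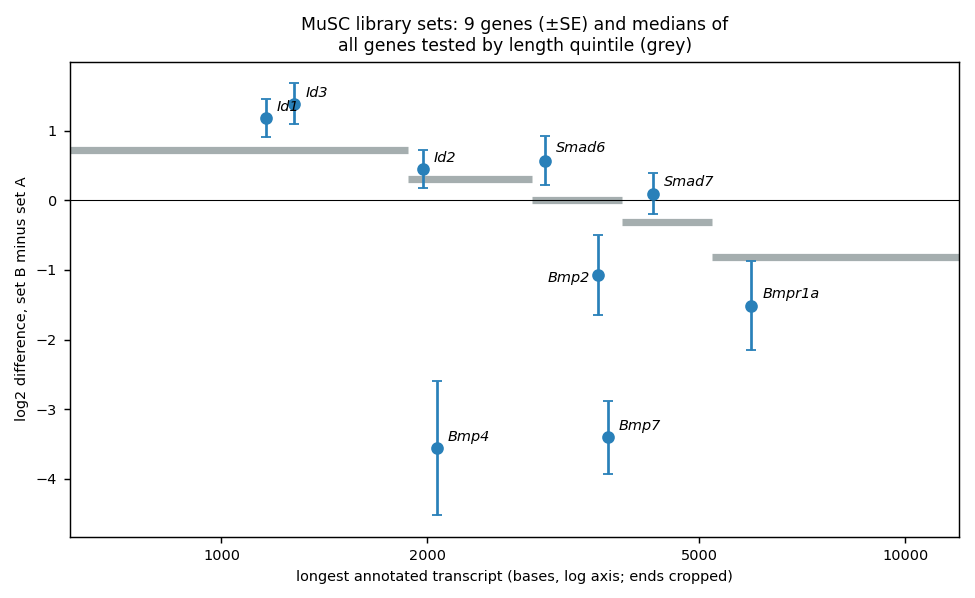
Fitted log2 difference of set B over set A (points, with SE) for the 9 tested genes against the longest annotated transcript in bases, with the medians of all genes in 5 length groups in grey. Id1 and Id3 lie high at the short end and Bmpr1a low at the long end, where the medians of all genes are 0.72 and -0.82; Bmp4 and Bmp7 lie well below the grey line.

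In quadriceps, transplanted mice were compared with shams, the study's question about the treated hindlimb. None of the 10 genes passed the test. edgeR's quasi-likelihood test, with the table as a term, called 0 of the 10, and 0 of 14375 genes in all (0%). At an unadjusted p of 0.05 it was 0 of the 10, against 1018 of all genes (7.08%). By DESeq2, 6 genes were called, none of them among the 10. No gene of the 10 had groups that did not overlap in CPM, against 2.11% of all genes (1.15% higher and 0.96% lower in transplanted muscle). Their median log2 difference of transplanted over sham was 0.02, against -0.0005 over all genes.

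The inhibitor Smad7 had the smallest p of the 10. In the table with 2 shams it read 4.42, 5.58 and 4.46 CPM in transplanted 4, 14 and 94, against 10.3 and 6.36 CPM in sham 3 and 192. In the table with 1 sham it read 7.39, 7.97 and 7.64 CPM in transplanted 5, 6 and 11, against 6.67 CPM in sham 12. The order of the groups thus turned between the tables. The fitted log2 difference was -0.43 ± 0.22 (edgeR adjusted p = 0.720), with -0.10 without sham 3 and -0.79 without sham 12. On the deposited TPM the groups did not overlap, at 1.20 to 2.11 TPM in transplanted and 2.22 to 3.08 TPM in sham muscle. On that scale 2.71% of all genes were lower in every transplanted library than in every sham library, of 2.8% that did not overlap, and limma on log2 TPM gave -0.62 ± 0.23 with an adjusted p of 0.592. The median of all genes on that scale was -0.15.

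Of the ligands, Bmp7 lay between 0.326 and 0.670 CPM in transplanted muscle (median 0.518) and at 0.536, 0.371 and 0.240 CPM in sham 3, 192 and 12. That is 65 counts over 6 libraries and 22 over 3, with a log2 difference of 0.52 ± 0.40. Bmp6 lay between 7.12 and 16.8 CPM in transplanted muscle (median 9.60) and between 5.52 and 12.9 CPM in sham muscle. The groups overlapped for all 4 ligands, and the log2 differences were 0.17 ± 0.28 for Bmp6, 0.17 ± 0.23 for Bmp4 and -0.23 ± 0.28 for Bmp2. For the receptor Bmpr1a the means were 83.4 ± 18.4 CPM over the 6 transplanted libraries and 87.1 ± 18.6 CPM over the 3 shams (SD), a log2 difference of -0.00013 ± 0.11. By table, it read 63.9 to 74.3 CPM with the transplant and 73.5 CPM in sham 12, and, in the 2-sham table, 91.0 to 105 CPM with the transplant and 79.6 and 108 CPM in its shams.

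Of the 10 genes, Id3 and Bmpr1a separated fully by table. Id3 averaged 10.7 ± 0.476 CPM in transplanted 5, 6 and 11 and 5.95 ± 1.09 CPM in transplanted 4, 14 and 94. In sham muscle it was 9.26 CPM in sham 12, and 5.04 to 7.55 CPM in sham 3 and 192. Every library of the 1-sham table lay above every library of the 2-sham table for Id3 and below it for Bmpr1a. Over all genes 7.29% were higher and 11.3% lower in this way, 18.6% in all, against 2 of the 10. Id1 and Id2 overlapped between the tables. The fitted log2 difference of transplanted over sham was 0.04 ± 0.16 for Id3, 0.17 ± 0.23 for Id1 and -0.26 ± 0.38 for Id2. Smad6, at -0.10 ± 0.30, had its lowest value in the transplanted group (1.86 CPM) and its highest there too (6.90 CPM). The adjusted p-values of the 10 genes from edgeR were 0.720 or more.

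**Figure D4:**
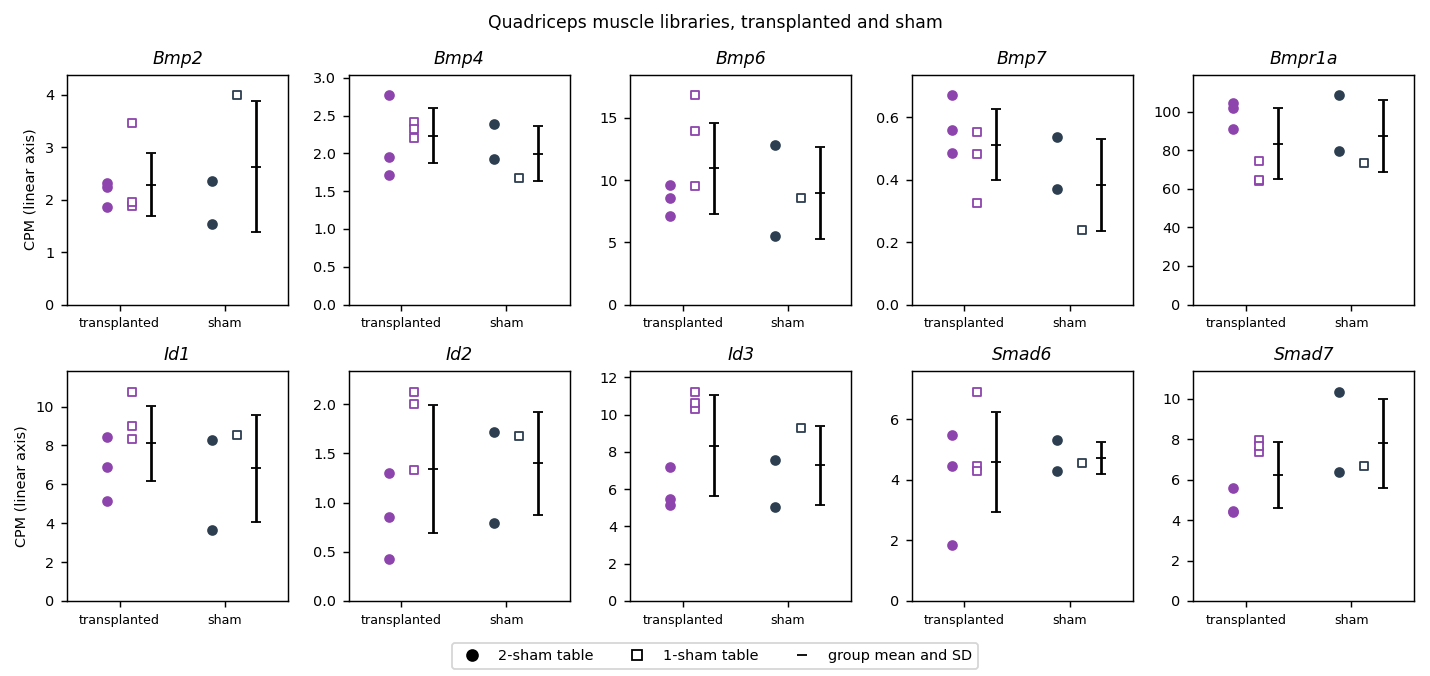
CPM in quadriceps for each of the 10 genes, transplanted left of sham, with filled circles for the 2-sham table, open squares for the 1-sham table, and bars for the mean and SD. The groups overlap in every panel, and the open squares lie above the filled circles for Id3 and below them for Bmpr1a.

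Beside these 10, 56 other BMP pathway genes were read from lists of its ligands, receptors, Smads, antagonists and proteases. The co-receptor Hjv averaged 8.57 TPM in MuSCs and 309.9 TPM in muscle. Nbl1, a secreted antagonist, averaged 115 TPM in MuSCs and 8.98 TPM in muscle. Grem1, which traps BMP2 and BMP4, averaged 10.6 TPM in MuSCs and 0.0244 TPM in muscle. The ligand Gdf6 averaged 6.91 TPM in MuSCs and 0.0667 TPM in muscle, and Bmp5 0.0817 TPM in MuSCs and 2.25 TPM in muscle. In MuSCs 32 of the 56 averaged at least 1 TPM, and in muscle 28.

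In MuSCs 39 of the 56 were tested, of which 0 passed the threshold, 14 were positive and 25 negative, with a median log2 difference of -0.10. At an unadjusted p of 0.05 it was 1 of 39 (2.56%), about the 2.26% of all genes. That gene was Gdf6, with 7.58 ± 5.21 CPM after and 27.9 ± 15.9 CPM before (-1.88 ± 0.69). Grem1 had 19.9 CPM after and 46.0 CPM before (-1.21 ± 0.62), and Hjv 8.42 CPM after and 17.9 CPM before (-1.08 ± 0.74). At the other end, Furin, a protease that cuts BMP precursors, had 216 ± 65.0 CPM after and 152 ± 30.8 CPM before (0.51 ± 0.32). Rgma, a co-receptor, had 2.15, 1.97 and 8.01 CPM in after 5, 6 and 11, and 2.17, 2.25 and 1.53 CPM before. Its higher mean after (4.04 against 1.98 CPM) thus came from after 11 alone. Atoh8, a BMP-responsive factor, had 59.1 CPM after and 43.8 CPM before. All 6 had an adjusted p of 0.873 in edgeR. The library set was not a term in this fit. Within set A, Furin had 147 CPM in after 5, against 143 and 127 CPM in before 5 and before 11. Gdf6 had 12.9 CPM in after 5, against 42.9 and 29.4 CPM in before 5 and before 11.

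In muscle 40 of the 56 were tested, of which 0 passed, 17 were positive and 23 negative, with a median of -0.06. At an unadjusted p of 0.05 it was 2 of 40 (5%), against 7.08% of all genes. These were the antagonists Chrdl1, at 1.64 ± 0.606 CPM with the transplant and 3.07 ± 1.29 CPM in shams, and Fst, at 5.13 ± 0.877 CPM with the transplant and 7.86 ± 2.23 CPM in shams. Their log2 differences were -1.06 ± 0.28 and -0.63 ± 0.19, both with an adjusted p of 0.686 in edgeR. Fstl1, a secreted glycoprotein that binds BMPs, had 30.4 CPM with the transplant and 38.1 CPM in shams. The highest were Acvrl1, an endothelial type I receptor, at 11.0 ± 2.16 CPM with the transplant and 8.42 ± 2.58 CPM in shams, then Furin and Dand5. Fibroadipogenic markers summed to 193.3 to 272 TPM in transplanted and 259 to 454 TPM in sham muscle, and endothelial markers to 64.4 to 98.7 TPM in transplanted and 84.1 to 109 TPM in sham muscle. Sham 12 was the highest library in several lists: adipocyte markers summed to 1094 TPM there and to 136 to 506 TPM in the other 8 muscle libraries, and macrophage markers to 61.5 TPM there and 23.1 to 38.7 TPM in the others. It also gave the highest fibroadipogenic sum. The part of these markers in the values of Chrdl1, Fst, Fstl1 and Acvrl1 was not tested.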

How the data were processed

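RNA of 15 mouse libraries was sequenced in bulk: 3 MuSC libraries after and 3 before transplantation, and quadriceps of 6 transplanted and 3 sham mice. Per the file headers, the authors deposited 3 tables (1 MuSC, 2 muscle) with estimated counts, TPM and FPKM for 56953 genes. Builds GRCm38 and mm10 appear in the submitters' processing notes; the aligner and the quantifier are not named there. The tables' coordinates did not overlap those of RefSeq GRCm38.p6 for the 10 genes and were not printed. Another 3 columns matched no sample's labels and were not used.

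Estimated counts were rounded and tested with edgeR 4.0.16 in R 4.3.3 (filterByExpr with a minimum count of 10, TMM, quasi-likelihood, Benjamini-Hochberg over all genes tested, 2-sided, threshold 0.05), for muscle with the table as a term. CPM divides counts by the TMM-scaled library size. The SE is the log2 difference over the root of F. TPM was used for levels, since it is scaled for length. DESeq2 1.42.0 and limma 3.58.1 on log2(TPM + 0.1) were alternatives, as were other scalings, filters, single tables or library sets, and leaving out each library. The test was tried on simulated data.

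The 10 genes, the gene lists and the tests were chosen with earlier results of these data known. Named pathway genes are the 3 highest and 3 lowest by signed F in each comparison. Levels named in MuSCs and muscle beyond these were chosen after their values were seen. The mouse numbers pair the MuSC libraries per the labels, which call the cells autologous. The after and before deviations from the group means had correlations of 0.30 (mouse 5), 0.36 (mouse 6) and -0.40 (mouse 11). Mouse 11 crosses library sets, and the highest values joined different mice within a set (0.55 for after 11 with before 6, 0.49 for after 5 with before 11), so the pairing rests on the labels. No libraries of a group agreed within sampling noise. Counting limits (3 counts for a count of 0) cover counting error only.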

Additional observations from a re-analysis of the deposited data

Results flagged for a closer look

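Bmp2 in transplanted 6 read 3.45 CPM, apart from the other 5 transplanted muscle libraries at 1.86 to 2.31 CPM. The gap was over Dixon's limit for 6 values. It was the only 1 of 10 gene groups to do so, and chance gives about 1 in 20 for each group checked. Without transplanted 6, the log2 difference of transplanted over sham for Bmp2 was -0.34, against -0.23 with it.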

How the results depend on the processing

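With the mouse as a replicate block, edgeR again called 0 genes in MuSCs and the Bmp7 difference was 5.71. No paired analysis was possible for muscle because the transplanted and sham groups share no mouse number. Genes called in MuSCs were 16 by DESeq2, 43 in set A alone and 4 without after 5 and after 11 (added after seeing the data), and 0 without any single library. In muscle they were 6 by DESeq2, 12 with no filter, 1 in the 2-sham table alone, 41 in the 1-sham table alone, and 0 to 4 leaving out 1 library; 0 of the 10 genes were called in any of these. For the sets they were 4453 by DESeq2, 4671 with no filter, 4366 without the transplantation term, and 0 to 3423 leaving out 1 library. By FPKM, 2 places in the order of levels changed, those of Bmp7 and Smad6 in MuSCs. Muscle log2 differences changed sign in the 2-sham table alone for Bmp2 (0.13), Bmp4 (-0.0064), Bmp6 (-0.13), Bmpr1a (0.074) and Id3 (-0.086), in the 1-sham table alone for Id2 (0.12), Smad6 (0.20) and Smad7 (0.21), on log2 TPM for Bmp4 (-0.40) and Id3 (-0.16), and with no filter for Bmpr1a (0.0046). Leaving out 1 library, muscle differences ranged from -0.45 to 0.13 for Bmp2, -0.0021 to 0.31 for Bmp4, -0.12 to 0.63 for Bmp6, -0.12 to 0.091 for Bmpr1a, -0.074 to 0.47 for Id1, -0.53 to 0.12 for Id2, -0.080 to 0.23 for Id3 and -0.28 to 0.11 for Smad6. Smad7 ranged from -0.79 to -0.10. In MuSCs, Id2 ranged from -0.10 to 0.34 and Id3 from -0.078 to 0.76. For the sets, Smad7 ranged from -0.45 to 0.64. The cause was not tested. On log2 TPM the median of all genes was -0.20 in MuSCs, where Bmp7 was 4.55. Bmp6 in MuSCs, with 7 counts in all, was removed by the filter on low counts and not tested.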

Other observations

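The genes whose pattern was most like that of Bmp7 over the 6 MuSC libraries were Kcnn4, a calcium-activated potassium channel (Pearson r = 0.992 of log2 CPM), Syne3, a nuclear envelope protein (0.988), and Hnrnpul1, an RNA-binding protein (0.982). Over the 9 muscle libraries, with log2 CPM centred on each table's mean, those most like Id1 were Erp29 (0.968), B9d2 (0.962) and Ccdc85a (0.956). Of the 10 genes, Id3 was the most like Id1 in muscle, at 0.846, and stood at place 89 among the genes ranked. Predicted genes were left out of both rankings. These values share libraries and tables and are given as a description.

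The deposited TPM and the counts of Bmp4 did not keep 1 ratio. In the MuSC libraries of mouse 6, Bmp4 had 8 counts and 1.5 TPM after, against 7 counts and 0.29 TPM before. In muscle it had 50 counts and 1.25 TPM in transplanted 11, against 35 counts and 3.16 TPM in sham 12.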
